A study of Mus musculus with 36 samples.

Results

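The 10 genes described here are transcripts of the male reproductive tract, of sperm, of epithelia and of smooth muscle that were read from eWAT, the epididymal white fat pad of the mouse. They were Crisp1, Akr1b7, Prm2, Clic6, Ppp1r1b, Prom2, Kcnk1, Hnf4a, Epcam and Cnn1. They were taken from a list of gene symbols, matched to Ensembl identifiers, and all 10 were among the 16690 genes of the deposited eWAT count table. The list had been drawn up from the levels of these eWAT libraries, so the eWAT values below are a description and carry no test. The question was whether these transcripts followed the diet or single libraries.

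The fat pad, the epididymis and the vas deferens lie side by side in the male mouse. The epididymis is a coiled duct lined by secretory epithelium in which sperm mature and are stored, and the vas deferens that leaves it has a thick wall of smooth muscle. Adipocytes are mesenchymal cells, which lack the E-cadherin and keratins of epithelial sheets.

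RNA was sequenced from eWAT and liver of wild-type C57BL/6 males of the F0 generation, 24 weeks old, that had eaten chow up to 6 weeks of age. HFLF mice then ate high-fat diet for 9 weeks followed by low-fat diet for 9 weeks, HF mice ate high-fat diet for 18 weeks, and LF mice ate low-fat diet for 18 weeks. Each diet had 6 libraries per tissue, named here by diet and replicate number (LF 3 is the LF library with number 3), and the labels do not say that each came from a separate mouse, so p-values measure only the spread between these samples. The eWAT libraries held 8941798 to 31186477 counts (median 19029134) and the liver libraries 11662551 to 23295485 (median 18417378).

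Levels are CPM, counts per 1000000 of a library size scaled by TMM, a normalisation that sets the bulk of genes equal between libraries. The 8 adipocyte markers examined, Adipoq, Plin1, Lep, Fabp4, Cidec, Lipe, Pnpla2 and Retn, were all measured, and their summed level was 25929 to 33976 CPM in HFLF, 13326 to 33735 CPM in HF and 21851 to 39170 CPM in LF. In bulk tissue, fewer cells of a type and less RNA per cell cannot be told apart. Of 40 genes listed for the epididymal epithelium only 2, Glb1l2 and Cst8, were in the eWAT table, and the other 38 are not analysed here. Every gene of the table exceeded 0.5 CPM in at least 6 of the 18 libraries, so that a transcript present in 5 or fewer could not have been kept. Crisp1, Akr1b7, Ppp1r1b, Prom2 and Kcnk1 passed with exactly 6 libraries, Hnf4a and Epcam with 8, Clic6 with 12, Prm2 with 15 and Cnn1 with 17.

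The RefSeq promoters of 5 of the 10 genes are shown because they stand for the 3 patterns of libraries described below: Crisp1 and Akr1b7 for LF 3, Prm2 for the sperm transcripts, and Epcam and Prom2 for the epithelial group. Each runs from 250 bases before to 50 bases from the annotated start, 5′ to 3′ along the gene (GRCm38.p6), and capitals mark a TATA box (TATAAA), a GC box (GGGCGG) or a half-site of the androgen response element (AGAACA), read on either strand.
Crisp1, chr17:40319158-40319457, minus strand: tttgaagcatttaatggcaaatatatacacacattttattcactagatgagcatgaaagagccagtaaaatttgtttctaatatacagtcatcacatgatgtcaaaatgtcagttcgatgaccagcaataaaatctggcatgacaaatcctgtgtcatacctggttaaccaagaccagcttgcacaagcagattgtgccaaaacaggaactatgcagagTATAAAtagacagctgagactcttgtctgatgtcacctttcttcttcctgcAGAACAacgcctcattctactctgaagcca
Akr1b7, chr6:34412112-34412411, plus strand: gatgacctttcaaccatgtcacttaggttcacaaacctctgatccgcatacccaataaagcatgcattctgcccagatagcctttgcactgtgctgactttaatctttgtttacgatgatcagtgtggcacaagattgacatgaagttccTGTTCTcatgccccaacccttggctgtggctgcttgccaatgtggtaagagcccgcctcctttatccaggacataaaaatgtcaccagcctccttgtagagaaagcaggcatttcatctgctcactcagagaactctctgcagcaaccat
Prm2, chr16:10792056-10792355, minus strand: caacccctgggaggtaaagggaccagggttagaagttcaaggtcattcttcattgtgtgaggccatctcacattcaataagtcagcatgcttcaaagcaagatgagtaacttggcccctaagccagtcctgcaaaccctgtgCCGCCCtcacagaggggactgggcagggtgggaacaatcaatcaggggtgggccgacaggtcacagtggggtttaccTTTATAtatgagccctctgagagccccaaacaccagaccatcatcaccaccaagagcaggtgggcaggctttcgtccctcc
Epcam, chr17:87635729-87636028, plus strand: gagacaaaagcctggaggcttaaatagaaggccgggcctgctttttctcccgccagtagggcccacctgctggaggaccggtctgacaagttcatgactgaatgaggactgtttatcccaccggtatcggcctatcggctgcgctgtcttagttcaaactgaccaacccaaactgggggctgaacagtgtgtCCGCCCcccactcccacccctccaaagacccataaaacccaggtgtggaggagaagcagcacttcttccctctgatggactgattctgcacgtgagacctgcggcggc
Prom2, chr2:127541368-127541667, minus strand: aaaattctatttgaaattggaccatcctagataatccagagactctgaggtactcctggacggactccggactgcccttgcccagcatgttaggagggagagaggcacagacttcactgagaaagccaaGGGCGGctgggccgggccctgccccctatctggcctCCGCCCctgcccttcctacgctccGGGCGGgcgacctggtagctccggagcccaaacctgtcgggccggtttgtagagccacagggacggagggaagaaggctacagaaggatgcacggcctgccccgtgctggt

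RefSeq promoters were at hand for 8 of the 10 genes. The TATA box was found in 2 of them, Crisp1 and Prm2, in both 31 bases before the start, and in 13.6% of the 32851 promoters of the table. In Prm2 these letters lay on the opposite strand. A GC box was found in 4 of the 8, Prm2, Prom2, Hnf4a and Epcam, and in 35.7% of all promoters. The androgen half-site occurred in Crisp1 and Akr1b7 and in 19% of all promoters. An HNF4 motif (CAAAGTCCA), a cAMP response element (TGACGTCA), an HNF1 motif and a CArG box were also searched, and none of the 8 genes held these letters in the window. They occurred in 0.475%, 1.79%, 0.00913% and 1.63% of all promoters. Kcnk1 and Cnn1 held none of the 7 motifs, and the second annotated start of Hnf4a held none either.

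Akr1b7 and Crisp1 were each read almost entirely from a single library, LF 3. Akr1b7 (chr6:34412334-34423142) encodes an aldo-keto reductase first described as the mouse vas deferens protein. Crisp1 (chr17:40293758-40319207) encodes a cysteine-rich protein that the epididymal epithelium secretes onto sperm. Cnn1 (chr9:22099216-22109630) encodes calponin 1, an actin-binding protein of differentiated smooth muscle, and was highest in the same library.

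Akr1b7 had 0 to 10.1 CPM in HFLF (median 0.697), 0.123 to 0.998 CPM in HF (median 0.301) and 0 to 842 CPM in LF (median 0.159). Its level of 842 CPM in LF 3 rested on 8848 counts and was 97.6% of the sum over the 18 libraries. The next libraries were HFLF 4 at 10.1 CPM and HFLF 6 at 4.76 CPM. Leaving LF 3 aside, the LF libraries held no more than 1.78 CPM, within the range of the HFLF libraries.

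Crisp1 ranged over 0 to 7.05 CPM in HFLF (median 0.448), 0 to 5.16 CPM in HF (median 0.0964) and 0 to 218 CPM in LF (median 0.117). LF 3 held 2294 of its counts and 93.4% of its summed level, followed by HFLF 4 at 7.05 CPM and HF 1 at 5.16 CPM. No other library passed 1.00 CPM, and the 3 diets overlapped.

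Cnn1 was at 1.20 to 6.32 CPM in HFLF (median 2.51), 0.274 to 5.05 CPM in HF (median 2.41) and 1.23 to 638 CPM in LF (median 22.6). LF 3, at 638 CPM, held 84.6% of the sum, and LF 4 and LF 2 followed at 31.3 and 30.4 CPM. Unlike Akr1b7 and Crisp1, Cnn1 was detected in all 18 libraries, and 4 of the 6 LF libraries lay above every HFLF and HF library while LF 1 and LF 5 lay within their range. Per kilobase of exon, the LF 3 level was 658 CPM for Akr1b7, 233 for Cnn1 and 154 for Crisp1.

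A highest library with more than 50% of the summed level was rare in the eWAT table, at 102 of 16690 genes (0.611%), and the median gene had 8.37% in its highest library. LF 3 was also the single library in which genes stood at least 10-fold above every other library. By that rule, chosen after the levels were seen and with at least 10 CPM in the library, LF 3 held 9 genes and each of the other 17 libraries held 0. They were Akr1b7, Cnn1, Crisp1, Actg2, Ank1, P2rx1, Ptgs2, Sh3bgr and Kcng1. Actg2, the actin of visceral smooth muscle, had 485 CPM in LF 3, against 24.1 CPM in the next library. P2rx1, an ATP-gated channel of smooth muscle including that of the vas deferens, had 101 CPM in LF 3, against 7.10 CPM.

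The 10 smooth muscle markers examined summed to 850 to 1067 CPM in HFLF, 590 to 1405 CPM in HF, and 5889 CPM in LF 3, against 694 to 1086 CPM in the other LF libraries. Myh11, the smooth muscle myosin heavy chain, had 1589 CPM in LF 3, against 196 CPM in LF 4, its next library. Acta2, smooth muscle actin, had 1439 CPM in LF 3, against at most 363 CPM elsewhere, and Mylk, the myosin light chain kinase, had 1266 CPM, against at most 353 CPM. Synpo2, an actin-binding protein of muscle, was an exception, with 191 CPM in LF 3, within the range of the other libraries (60.9 to 501 CPM). Of the 4 skeletal muscle markers measured, Acta1 made up nearly all of the sum of 241 CPM in LF 3, and Tnnt3 and Myh1 were at 0.571 and 0.666 CPM there. LF 3 held 10676818 counts, and its adipocyte sum of 33924 CPM lay within the LF range. Whether the smooth muscle markers and the secretory transcripts of LF 3 had 1 source was not tested.

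**Figure D1:**
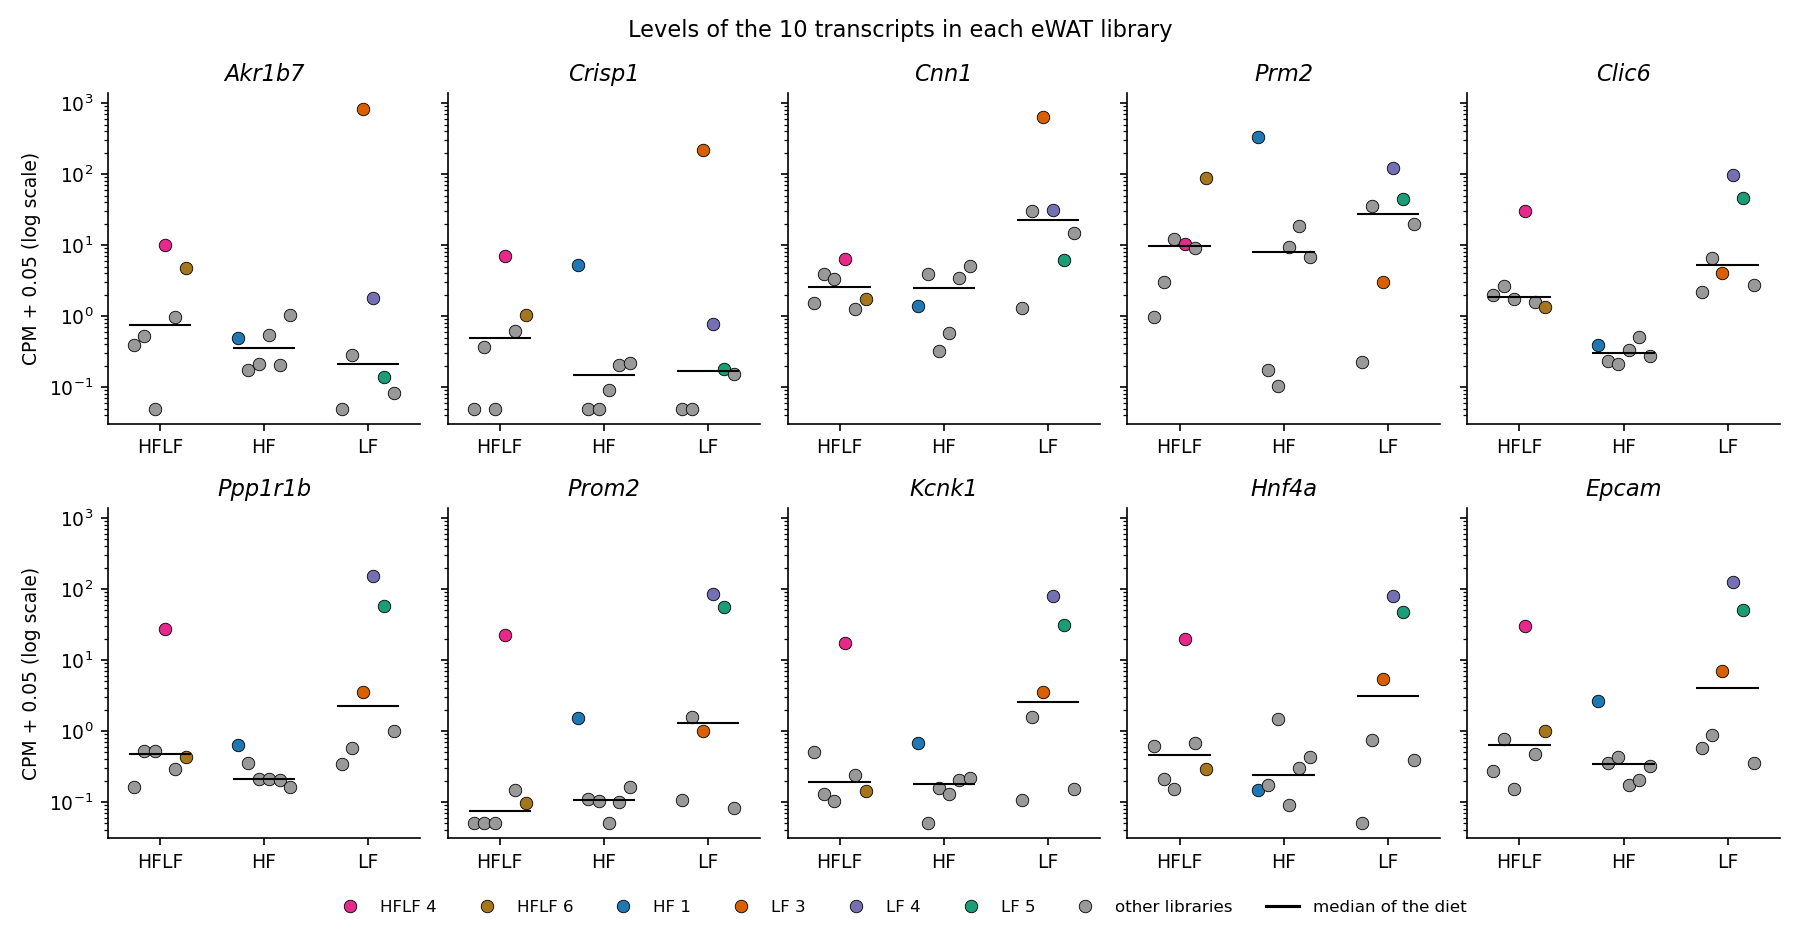
Levels of the 10 transcripts in the 18 eWAT libraries, as CPM + 0.05 on a log scale, for HFLF, HF and LF. Each point is a library, 6 libraries are coloured throughout, and the bar is the median of the diet. Akr1b7, Crisp1 and Cnn1 peaked in LF 3 (842, 218 and 638 CPM), Prm2 in HF 1 (333 CPM), and the other 6 genes in HFLF 4, LF 4 and LF 5.

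The genes most like each of the 10 were sought by the Pearson correlation of log2(CPM + 0.5) over the 18 eWAT libraries, among 15066 genes with a mean of at least 1 CPM. The points share libraries, depth and scaling, so r is a description. Spearman's rho, a correlation of ranks, was also taken for the same pairs. It was 0.88 to 0.98 for Cnn1, 0.95 to 0.98 for Prm2, 0.85 to 0.93 for Clic6 and 0.84 to 0.90 for Hnf4a. It was lower, at 0.34 to 0.80, for Ppp1r1b, Prom2, Kcnk1 and Epcam, 0.20 to 0.81 for Crisp1 and 0.14 to 0.42 for Akr1b7. Cnn1 was closest to Myh11 (r = 0.99), Myl9 (0.99), Lmod1, Tagln and Jph2 (0.96 each), genes of the contractile apparatus and its calcium handling, and without LF 3 these values were still 0.90 to 0.97. For Akr1b7 and Crisp1 all 5 values were lower without LF 3, by different amounts. Ppp1r12b, a subunit of myosin phosphatase, correlated with Akr1b7 at 0.89 over 18 libraries and at 0.33 without LF 3, and with Crisp1 at 0.84 and 0.19. Gm13091 led both lists (0.91 with Akr1b7 and 0.88 with Crisp1; 0.72 and 0.65 without LF 3), and 1110025M09Rik stood to Crisp1 at 0.81 and, without LF 3, at 0.74.

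Clic6, Ppp1r1b, Prom2, Kcnk1, Hnf4a and Epcam were high together in 3 libraries, HFLF 4, LF 4 and LF 5, with LF 4 the highest and HFLF 4 the lowest of the 3 for each gene. Epcam encodes the epithelial cell adhesion molecule. Prom2 encodes prominin 2, a membrane protein of epithelial protrusions, and Clic6 a chloride intracellular channel protein. Kcnk1 encodes the potassium channel TWIK-1, and Ppp1r1b the phosphatase inhibitor DARPP-32, best known from neurons. Hnf4a encodes a nuclear receptor of liver, kidney and gut epithelia.

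Epcam (chr17:87635979-87651129) was at 0.105 to 29.8 CPM in HFLF (median 0.578), 0.121 to 2.58 CPM in HF (median 0.292) and 0.304 to 125 CPM in LF (median 3.94). The level was 29.8 CPM in HFLF 4, 125 CPM in LF 4 and 51.1 CPM in LF 5, and the next libraries were LF 3 at 7.05 CPM and HF 1 at 2.58 CPM. Epcam had 2 to 20 counts in each of the other 5 HFLF libraries and 3 to 53 in HF, beside 2244 counts in LF 4. The 3 diets overlapped, since LF 1, LF 2 and LF 6 were at 0.529, 0.843 and 0.304 CPM.

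Prom2 (chr2:127526473-127541467) was the gene most nearly confined to these 3 libraries. It had 0 to 22.3 CPM in HFLF (median 0.0238), 0 to 1.46 CPM in HF (median 0.0581) and 0.0338 to 85.9 CPM in LF (median 1.24). HFLF 4, LF 4 and LF 5, at 22.3, 85.9 and 55.5 CPM, held 97.3% of the sum, and no count was found in 3 of the HFLF libraries.

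Ppp1r1b (chr11:98348404-98357796) had 0.114 to 27.0 CPM in HFLF (median 0.427), 0.111 to 0.584 CPM in HF (median 0.163) and 0.294 to 153 CPM in LF (median 2.23). It reached 27.0, 153 and 58.6 CPM in HFLF 4, LF 4 and LF 5, and LF 3 was next at 3.52 CPM. Kcnk1 (chr8:125995170-126030685) had 0.0526 to 17.6 CPM in HFLF (median 0.143), 0 to 0.633 CPM in HF (median 0.131) and 0.0587 to 80.7 CPM in LF (median 2.53). It stood at 17.6, 80.7 and 30.8 CPM in these 3 libraries, with LF 3 next at 3.52 CPM, and for both genes the remaining LF libraries overlapped HFLF and HF.

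Per kilobase of exon in LF 4, Epcam had the highest level of the 6 at 56.9 CPM, then Ppp1r1b at 52.1, Kcnk1 at 36.1, Clic6 at 24.8, Prom2 at 16.6 and Hnf4a at 16.6. The 3 highest libraries held 86.9% (Clic6) to 97.3% (Prom2) of the summed level of each gene. More than 75% in 3 libraries was seen in 391 of 16690 genes (2.34%), and the median gene had 23.0%. The 15 pairs among the 6 genes correlated at r = 0.88 to 0.98 (median 0.96, 18 libraries).

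The same 3 libraries stood out for 66 genes, by a rule chosen after the levels were seen: at least 5 CPM in all 3 and at least 3-fold above the highest of the other 15 libraries. The 6 genes above were among them, and 60 were others. The most abundant of those in LF 4 were Foxj1 at 297 CPM, Acsbg1 at 268, Gstm7 at 259, Atp1b1 at 243, Prom1 at 204, Espn at 168 and Lrp2 at 165 CPM. Foxj1 is the transcription factor of motile cilia, Prom1 and Espn belong to membrane protrusions and microvilli, and Lrp2 encodes megalin, an endocytic receptor of absorptive epithelia. Mapk15 and Vil1, a kinase of cilia and the microvillar protein villin, had 138 and 56.6 CPM.

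The genes were chosen as high in all 3 libraries, and their levels stood in these proportions. LF 5 over LF 4 was 0.439 at the median of the 6 genes (0.382 to 0.646) and 0.395 at the median of the other 60 (0.276 to 0.706). HFLF 4 over LF 4 was 0.245 at the median of the 6 (0.177 to 0.311) and 0.239 at the median of the 60 (0.165 to 0.560). Hnf4a and Prom2 were high in LF 5, at 0.599 and 0.646 of their LF 4 level.

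**Figure D2:**
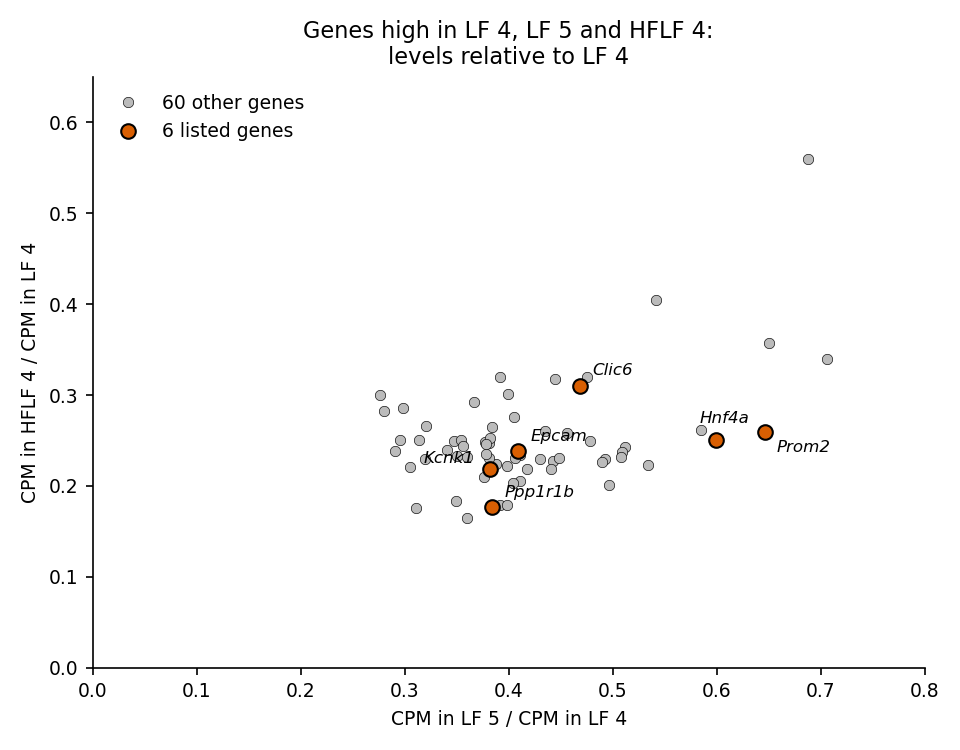
CPM in HFLF 4 over CPM in LF 4 (vertical) against CPM in LF 5 over CPM in LF 4 (horizontal) for the 66 genes high in these 3 libraries. Each point is a gene, and the 6 named genes lie among the 60 others, and the medians of the 60 are 0.395 on the horizontal and 0.239 on the vertical axis.

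Among 13 measured genes of 23 listed for epithelia in general, the summed level was 200 CPM in HFLF 4 and 59.2 to 99.0 CPM in the other HFLF libraries, 49.5 to 84.9 CPM in HF, and 743 CPM in LF 4, 394 CPM in LF 5 and 45.4 to 158 CPM in the other LF libraries. Krt8, a keratin of simple epithelia, had 45.6 CPM in HFLF 4 and 3.42 to 6.997 CPM in the other HFLF libraries, 1.07 to 7.06 CPM in HF, and 192 and 96.8 CPM in LF 4 and LF 5. It was at 23.2 CPM in LF 1, 11.7 CPM in LF 3 and 4.98 CPM or less in LF 2 and LF 6. Spint2, a protease inhibitor of epithelia, had 70.7 CPM in HFLF 4, at most 36.0 CPM in HF, and 222 and 114 CPM in LF 4 and LF 5. Krt19 had 90.9 CPM in LF 4 but also 75.2 CPM in LF 1. None of the 13 met the rule for the 66 genes.

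Markers of other cells gave these values in the 3 libraries. The 10 mesothelial markers, led by Upk3b, Msln, Rspo1 and Gpm6a, summed to 116 CPM in HFLF 4, 153 CPM in LF 4 and 259 CPM in LF 5, within the 24.2 to 472 CPM of the other libraries. Of 7 clear cell genes of the epididymis, 3 were measured. Atp6v0a4, a proton pump subunit, had 5.03, 26.3 and 12.5 CPM in HFLF 4, LF 4 and LF 5 and at most 5.24 CPM elsewhere. Atp6v0d2, a subunit that macrophages also express, was highest in HF (21.01 to 390 CPM). The basal cell markers Krt14 and Trp63 were at 0 to 5.81 CPM in all libraries. Tgm4, the 1 accessory gland gene measured of 10, was at 0.668 to 1.68 CPM. Glb1l2, 1 of the 2 epididymal genes measured, was at 116 to 471 CPM in all 18 libraries and was lower in LF 4 (252 CPM) than in the other LF libraries. The summed adipocyte level was 26227 CPM in HFLF 4, within the 25929 to 33976 CPM of the other HFLF libraries. It was 21851 CPM in LF 4 and 27181 CPM in LF 5, against 33492 to 39170 CPM in the other LF libraries. The HF libraries were at 13326 to 33735 CPM. The 5 exocrine pancreas genes measured of 6 summed to 26.3 to 58.9 CPM in HFLF, 44.4 to 81.8 CPM in HF and 17.6 to 39.0 CPM in LF. The 6 leukocyte genes summed to 151 to 492 CPM in HFLF, 223 to 1824 CPM in HF and 87.4 to 146 CPM in LF. Their part in the levels of the 6 genes was not tested.

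Clic6 (chr16:92485736-92541243) was the only one of the 10 whose HF libraries did not overlap those of the other diets. It had 1.29 to 30.1 CPM in HFLF (median 1.81), 0.164 to 0.457 CPM in HF (median 0.253) and 2.11 to 97.0 CPM in LF (median 5.25). All 6 HF libraries, with 3 to 9 counts each, lay below every HFLF library and every LF library, while HFLF and LF overlapped. This separation was present outside HFLF 4, LF 4 and LF 5: the other 5 HFLF libraries were at 1.29 to 2.65 CPM and LF 1, LF 2, LF 3 and LF 6 were at 2.11, 6.51, 4.00 and 2.70 CPM. In the eWAT table as a whole, 6.39% of genes were lower in every HF library than in any LF library, and 4.77% were higher in every HFLF library than in any HF library.

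The genes most like Clic6 were Gstm7 (r = 0.96), Khk (0.95), Slc16a11 (0.95), Baiap2l2 (0.95) and Shroom1 (0.95), and none of these values was below 0.92 with any single library left out. Khk, the ketohexokinase that phosphorylates fructose, had 15.1 to 34.0 CPM in HFLF, 9.30 to 12.9 CPM in HF and 17.2 to 70.4 CPM in LF. HF lay below both other diets for Khk too, and HFLF 4, LF 4 and LF 5 were again the 3 highest libraries. Genes most like the other epithelial members included Acsbg1 for Prom2 and Epcam (0.98 and 0.97), Slc30a2 for Ppp1r1b (0.98) and Irx2 for Kcnk1 (0.98).

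Hnf4a (chr2:163506808-163572910) had 0.105 to 20.1 CPM in HFLF (median 0.404), 0.0405 to 1.42 CPM in HF (median 0.188) and 0 to 79.9 CPM in LF (median 3.06). It was highest in HFLF 4, LF 4 and LF 5, at 20.1, 79.9 and 47.9 CPM, followed by LF 3 at 5.43 CPM and HF 3 at 1.42 CPM. Since hepatocytes express Hnf4a strongly, its level was set beside albumin (Alb). The 18 liver libraries held 14.4 Hnf4a counts per 1000 Alb counts at the median (11.4 to 21.1). At this ratio the Alb level of HFLF 4 (135 CPM) corresponds to 1.95 CPM of Hnf4a, that of LF 4 (162 CPM) to 2.33 CPM and that of LF 5 (666 CPM) to 9.59 CPM, so the measured values were 10.3, 34.3 and 4.995 times these. HF 3 had 1.42 CPM, where its Alb level gives 1.43 CPM, and LF 3 had 5.43 CPM, where its Alb level of 296 CPM gives 4.26 CPM. Over the 15 libraries other than HFLF 4, LF 4 and LF 5 the measured value was 0 to 2.12 times that at the liver ratio, with a median of 0.825. The 6 hepatocyte markers, Alb, Apoa1, Apoa2, Ttr, Fgb and Serpina1a, summed to 235 CPM in HFLF 4, 268 CPM in LF 4 and 1106 CPM in LF 5, the highest of the 18 libraries. LF 3 had 546 CPM. These ratios use the eWAT levels from which Hnf4a was listed, so they are a description. Which cells Hnf4a came from in any library was not tested.

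**Figure D3:**
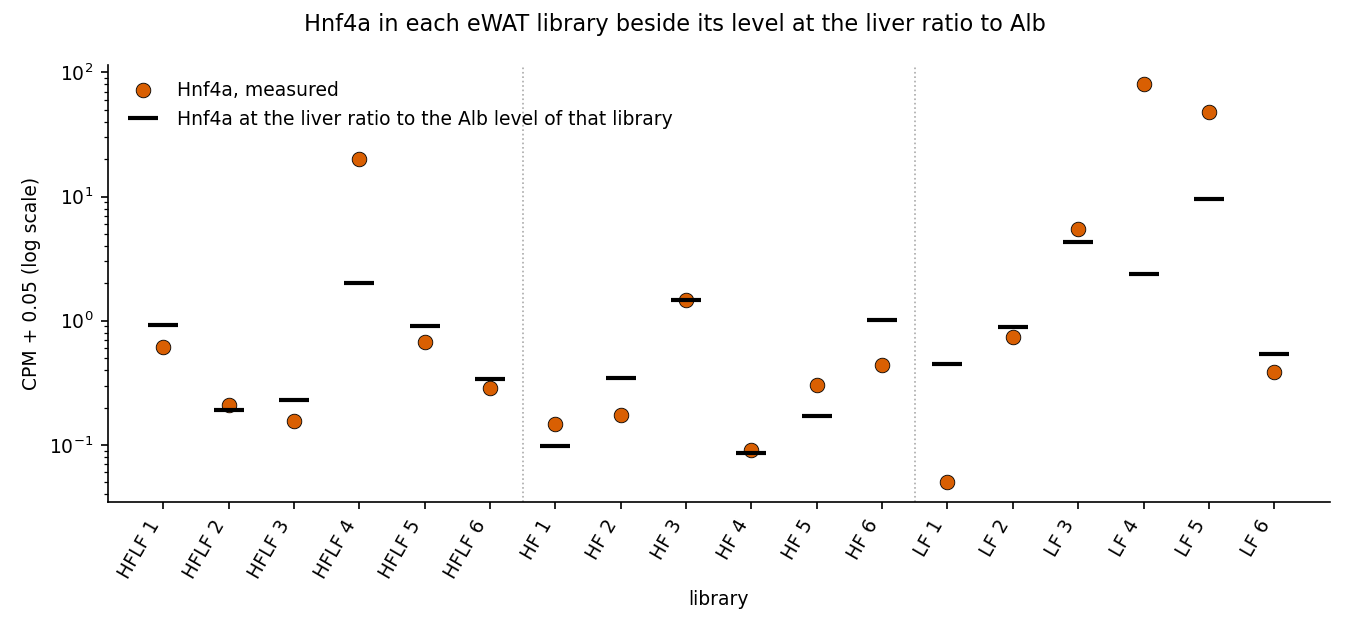
Hnf4a in the 18 eWAT libraries as CPM + 0.05 on a log scale (points), beside the level that the Alb level of the library gives at the median liver ratio (bars). In HFLF 4, LF 4 and LF 5 the points lie at 10.3, 34.3 and 4.995 times the bars. In the other 15 libraries the ratio is 0 to 2.12. The source of Hnf4a was not tested.

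The genes most like Hnf4a were Pklr (r = 0.99), Pipox, Nlrp6 and Slc38a4 (0.98 to 0.99) and 0610005C13Rik (0.98). Pklr, the pyruvate kinase of liver, kidney and gut, had 18.2 CPM in HFLF 4, 53.4 CPM in LF 4 and 37.7 CPM in LF 5, against at most 4.09 CPM elsewhere. Of markers listed for gut and kidney, 2 of 6 and 1 of 6 were in the table. Vil1 had 14.2 CPM in HFLF 4, 56.6 CPM in LF 4 and 20.04 CPM in LF 5, against at most 1.73 CPM in the other libraries. Lgals4 was at 15.9 to 46.0 CPM throughout. Aqp2, a water channel, had 1.89 CPM in HFLF 4, 7.24 CPM in LF 4 and 3.53 CPM in LF 5 but was highest in LF 3 at 10.9 CPM.

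Prm2 (chr16:10791380-10796134) encodes protamine 2, which packs the DNA of sperm, and followed a set of libraries of its own. It had 0.911 to 88.9 CPM in HFLF (median 9.76), 0.0548 to 333 CPM in HF (median 7.99) and 0.176 to 124 CPM in LF (median 27.8). HF 1 was highest with 6841 counts (46.3% of the summed level), followed by LF 4 at 124 CPM, HFLF 6 at 88.9 CPM, LF 5 at 44.8 CPM and LF 2 at 35.8 CPM. The 3 diets overlapped over nearly their whole range, and a library at 0.911 CPM or less was found in each.

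The genes most like Prm2 were Gsg1, Ldhc, Atp8b3, Akap4 and Odf1 (r = 0.96 to 0.97, and 0.95 to 0.96 without HF 1). Ldhc is the lactate dehydrogenase of the germ line, and Akap4 and Odf1 are proteins of the sperm tail. Of 22 sperm and germ cell genes listed, 21 were measured, and their summed level was 550 CPM in HFLF 6 and 17.5 to 65.7 CPM in the other HFLF libraries. It was 1476 CPM in HF 1 and 16.4 to 70.8 CPM in the other HF libraries, and 653 CPM in LF 4 and 21.4 to 192 CPM in the other LF libraries. edgeR's quasi-likelihood test, DESeq2 and voom each called 0 of these 21 in each of the 3 eWAT comparisons. Of all 16690 genes, they called 6817 (40.8%), 7373 and 6211 for HF against LF. For HFLF against LF they called 94, 704 and 679, and for HFLF against HF 4242, 5110 and 4984. A gene to which DESeq2 gave no p counts here as not called, so its 0 can include genes it did not test. In edgeR 0 had an unadjusted p under 0.05, where 40.8% of all genes were called for HF against LF. That comparison had a median of 0.48 on the log2 scale over the 21. Without LF 3, LF 4, LF 5, HF 1, HFLF 4 and HFLF 6 the median was -1.31, and edgeR called 1 lower in HF, the acrosin-binding protein gene Acrbp (31.2% of all genes called). Under an unadjusted p of 0.05 were then 2 of the 21 and 7161 of all 16690 genes.

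The make-up of the germ cell transcripts differed between libraries. Prm1, the other protamine, stood to Odf1 at 0.748 in HF 1 and 0.108 in LF 4, on 2090 and 2795, and 133 and 1237 counts. In the other libraries with at least 20 Odf1 counts this ratio was 1.33 to 3.04, with HFLF 6 at 1.62 on 1168 and 722 counts. Prm2 over Odf1 ranged from 1.80 in LF 4 to 5.5 in HF 5. Cst8, a cystatin gene, was the remaining measured gene of the epididymal list. It was highest in HFLF 6 (4.76 CPM), HF 1 (9.49 CPM) and LF 4 (3.01 CPM), the libraries highest in Prm2. Which cells it came from was not tested. Of 7 genes listed for testis somatic cells 4 were measured, and they summed to 57.0 CPM in HF 1, against 11.9 to 24.0 CPM in the other 17 libraries. Insl3 and Cyp17a1, a hormone and an enzyme of Leydig cells, had 32.8 and 12.8 CPM in HF 1, against at most 11.97 and 3.45 CPM elsewhere. LF 4 was high for both the sperm and the epithelial genes, whereas HF 1 and HFLF 6 had 2.58 and 0.952 CPM of Epcam.

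**Figure D4:**
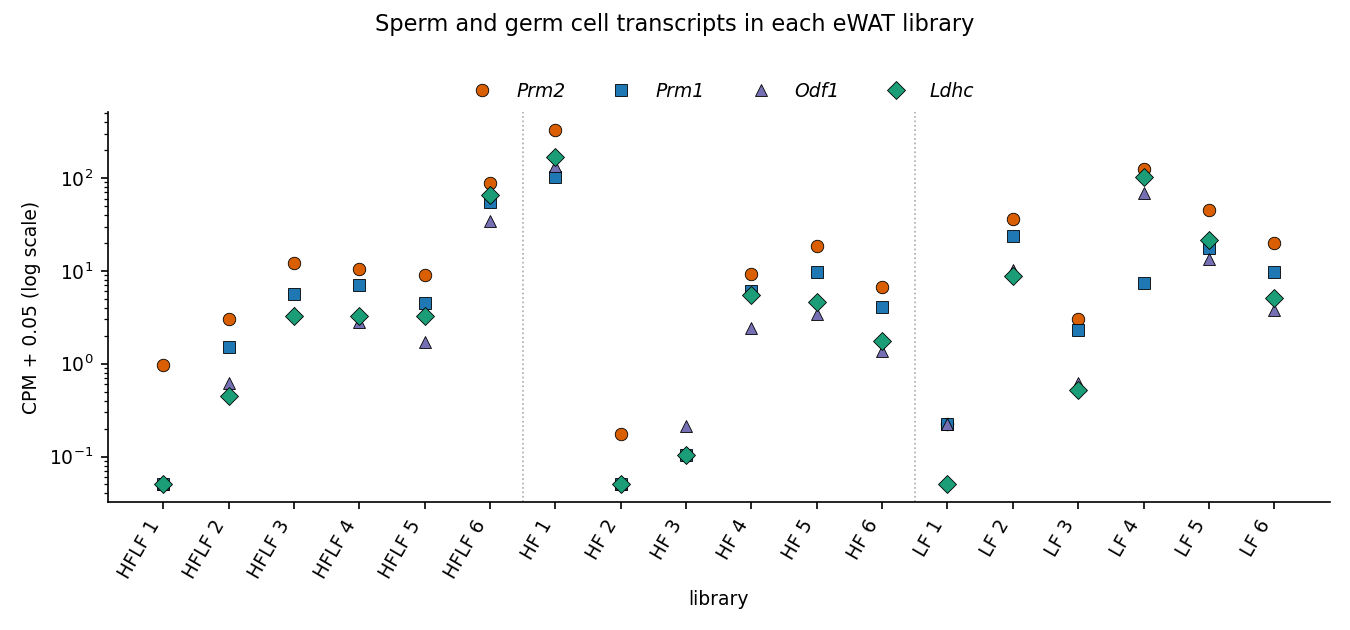
Prm2, Prm1, Odf1 and Ldhc in the 18 eWAT libraries as CPM + 0.05 on a log scale, with HFLF, HF and LF separated by dotted lines. All 4 are high in HF 1, and in LF 4 Prm1 (7.40 CPM) lies below Prm2 (124 CPM), Ldhc (104 CPM) and Odf1 (68.9 CPM).

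Set against the diets, the fitted fold changes of the 10 genes in eWAT were large and moved with a few libraries. HF against LF, the log2 fold change was negative for 9 of 10 and had a median of -6.09 (-0.02 over all genes), from -8.43 ± 2.31 (SE) for Akr1b7 to 0.69 ± 1.38 for Prm2. edgeR with Benjamini-Hochberg adjustment put 8 of the 10 past an adjusted p of 0.05 as lower in HF, all but Crisp1 and Prm2, where 20.2% of all genes were lower. The genes were chosen from these same libraries, so this count and the calls of these genes in all 3 comparisons are descriptive. DESeq2 put 6 past its threshold and gave no p for Akr1b7, Cnn1 and Crisp1, where it called 7373 of all 16690 genes. Voom with quality weights put 1 past it, Clic6, where it called 6211 of all genes. Without LF 3 alone, Akr1b7 was at -0.062 ± 1.25 and no longer past the threshold, Crisp1 changed sign to 2.23, and Cnn1 was at -2.79 and still past it. Prm2 changed sign to -2.45 without HF 1. Prom2 was no longer past it without LF 4, HF 3 or HF 4 (-6.11 to -5.28), and Crisp1 passed without HF 1 (-8.84 ± 2.70) or without any 1 LF library other than LF 3 (-5.55 to -5.52).

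The set LF 3, LF 4, LF 5, HF 1, HFLF 4 and HFLF 6 was chosen after the levels were seen. It holds libraries in which these genes were highest. Leaving it out moves their fold changes by construction and leaves fewer libraries, so the values are a description. Without it the median for HF against LF was -1.58 (0.00 over all genes). Past the threshold were 3 of the 10, Cnn1, Ppp1r1b and Clic6 (14.6% of all genes lower). The log2 fold change of Clic6 was then -3.78 ± 0.42, against -6.53 ± 1.28 with all libraries. That of Cnn1 was -2.55 ± 0.90, against -5.64 ± 1.27, and that of Ppp1r1b -1.75 ± 0.50, against -7.16 ± 1.87. Akr1b7, Crisp1 and Hnf4a changed sign, to 2.34 ± 1.25, 0.55 ± 1.49 and 0.42 ± 1.06, and Prm2 to -1.41 ± 1.29. With HF 1 and HFLF 6 kept and only LF 3, LF 4, LF 5 and HFLF 4 left out, 2 of the 10 were past the threshold, Cnn1 and Clic6, where 16.3% of all genes were lower.

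HFLF against LF, all 10 fold changes were negative with a median of -2.64, from -5.55 ± 1.90 for Akr1b7 to -0.85 ± 1.40 for Prm2, and edgeR put 0 of 10 past the threshold (0.563% of all genes). Unadjusted, 3 of 10 were under 0.05 in edgeR, as were 3028 of all 16690 genes. DESeq2, on the 7 genes to which it gave a p, and voom also called 0, where they called 704 and 679 of all genes. The counts of the 10 genes are descriptive too, since these genes were listed from these levels. Without LF 5, Cnn1 passed in edgeR, at -5.54 ± 1.20. Without LF 3, Akr1b7 and Crisp1 changed sign to 2.74 and 2.98, and Prm2 was at 0.014 without LF 4. Cnn1 was at -5.29 ± 1.25 and Clic6 at -1.99 ± 0.99. Without the 6 libraries the median was -0.89, and edgeR again put 0 of 10 past the threshold (0.0359% of all genes). Under an unadjusted 0.05 were 3 of the 10 and 2413 of all 16690 genes. Of the 10, 3 were then positive, Akr1b7 at 2.53, Crisp1 at 2.23 and Hnf4a at 0.13, and 4 were positive without LF 3, LF 4, LF 5 and HFLF 4.

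HFLF against HF, 9 of 10 were positive with a median of 3.17, and Clic6 alone was past the threshold, at 4.54 ± 1.21 (10.7% of all genes were higher). DESeq2 called 3, Clic6, Kcnk1 and Ppp1r1b, where it called 5110 of all 16690 genes. Voom called 0, with Clic6 at 2.97, where it called 4984 of all genes. Without HFLF 4 alone, Clic6 was at 2.67 ± 0.95 in edgeR and did not pass, and 6 genes changed sign: Prom2 (-2.83), Crisp1 (-1.14), Epcam (-0.35), Kcnk1 (-0.31), Hnf4a (-0.20) and Cnn1 (-0.042). Prm2, the gene negative with all libraries, was at 1.59 without HF 1. Without the 6 libraries Clic6 was at 2.83 ± 0.41 and still past it (3.73% of all genes higher), and the median over the 10 was 0.39, with 6 positive and 4 negative. Without LF 3, LF 4, LF 5 and HFLF 4, 3 were positive and 7 negative, with a median of -0.25. Prom2 had 3.67 ± 1.98 with all libraries and -0.62 ± 1.74 without the 6. As the 10 genes were listed from these levels, their calls here, that of Clic6 included, are descriptive. The comparisons share libraries: LF serves in the first and the second, HF in the first and the third and HFLF in the second and the third.

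**Figure D5:**
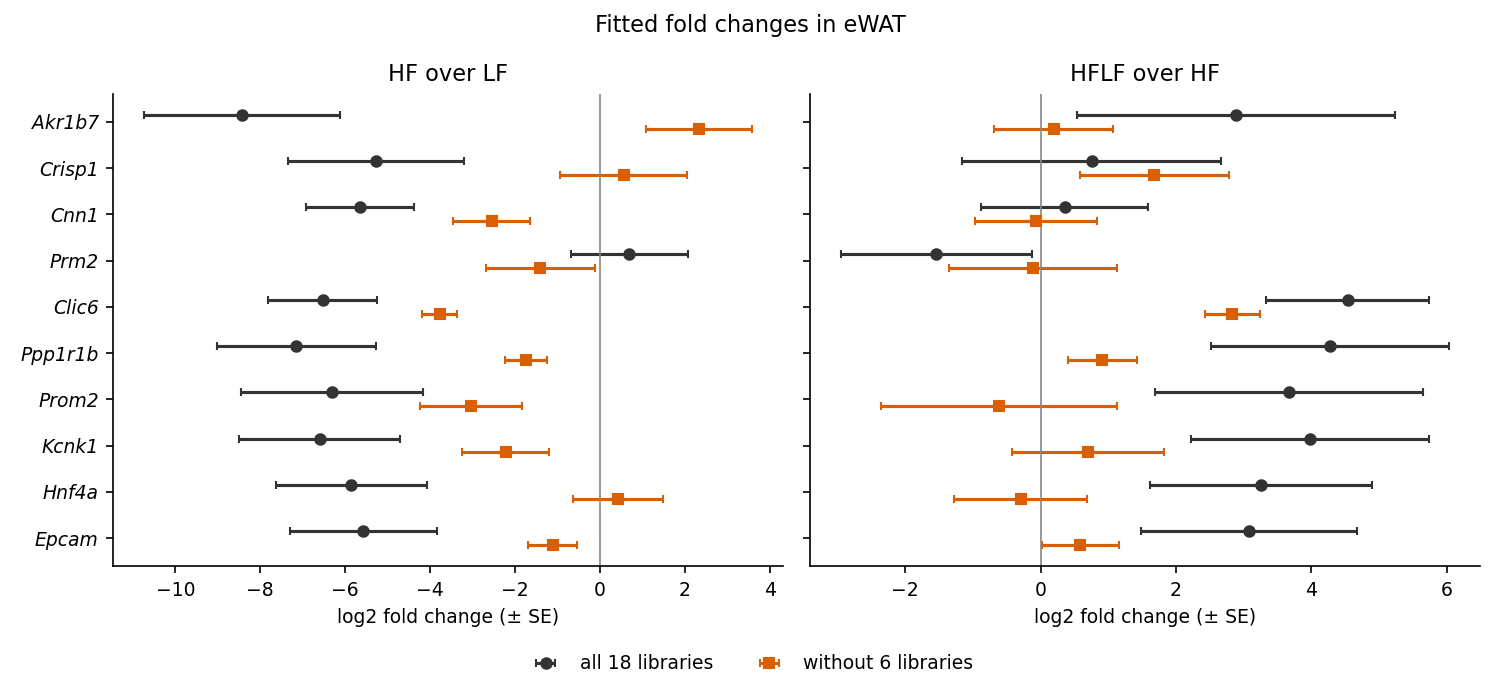
Log2 fold changes of the 10 genes in eWAT (± SE), HF over LF at left and HFLF over HF at right, with all 18 libraries (circles) and without LF 3, LF 4, LF 5, HF 1, HFLF 4 and HFLF 6 (squares). Most squares lie nearer to 0 than the circles, and Clic6 stays at -3.78 and 2.83. The 6 libraries were chosen as high in these genes, so the squares move by construction.

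Marker lists of other genes were fitted with and without the same libraries. The lists were chosen with earlier results of these data known. LF 4, LF 3 and LF 5 were the highest libraries for the epithelial, smooth muscle and hepatocyte lists, in that order. Leaving them out lowers these lists in LF by construction and leaves fewer libraries, so the values without the 6 libraries are a description. Over all genes, edgeR called 20.6% higher and 20.2% lower in HF against LF with all libraries, and 16.6% and 14.6% without the 6. Among the 13 epithelial genes, it called 9 lower and 0 higher in HF against LF, with a median log2 fold change of -2.66. Without the 6 libraries it called 2 lower, Esrp1 and Cldn3, and 2 higher, St14 and Marveld2, with a median of -0.74. These 4 genes and Acrbp are named because they were called. Among the 10 smooth muscle genes it called 6 lower and 1 higher (median -1.67), against 3 lower and 1 higher without the 6 libraries (median -0.69). Of the 6 hepatocyte genes 2 were called lower (median -2.71) and 0 without the 6 libraries (median 0.19, 0 under an unadjusted p of 0.05). edgeR called 0 of the 10 mesothelial genes with all libraries (2 under an unadjusted p of 0.05, 2 called by DESeq2 and 0 by voom) and 0 without the 6 (1 under an unadjusted p of 0.05). Of all 16690 genes, 8199 were under that unadjusted p in edgeR with all libraries and 7161 without the 6. With all libraries DESeq2 called 7373 and voom 6211 of them.

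In liver, whose values did not choose the genes, 4 of the 10 were in the deposited table of 14052 genes: Hnf4a, Ppp1r1b, Epcam and Kcnk1. Hnf4a fell in HF and in HFLF against LF. It had 674 to 1106 CPM in HFLF (median 790), 661 to 856 CPM in HF (median 765) and 1108 to 1308 CPM in LF (median 1195), so every LF library lay above every library of the other diets. The log2 fold change was -0.66 ± 0.10 for HF against LF (edgeR adjusted p = 0.000263) and -0.54 ± 0.10 for HFLF against LF (edgeR adjusted p = 0.00201). HFLF against HF it was 0.12 ± 0.10 and did not pass (edgeR adjusted p = 0.532).

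Hnf4a was thus the 1 gene of 4 called in each of the comparisons with LF, where 34.8% and 22.6% of all liver genes were called, and 0 of 4 were called for HFLF against HF (5.23%), by edgeR, DESeq2 or voom, with 0 under an unadjusted p of 0.05 in edgeR. For HFLF against HF, 3152 of all 14052 liver genes were under that unadjusted p, and DESeq2 called 1312 and voom 1758. Of all liver genes, 5.89% were lower in every HF library than in any LF library, and 3.37% were lower in every HFLF library than in any LF library. LF 1 to LF 4 stood apart in liver: on the first principal component (37.6% of the variance) HFLF scored -3.1 to 16.3, HF 12.7 to 28.2, LF 5 and LF 6 1.3 and -1.8, and LF 1 to LF 4 -58.2 to -33.5. Without them Hnf4a was at -0.60 ± 0.15 for HF against LF (edgeR adjusted p = 0.0486) and at -0.48 ± 0.15 for HFLF against LF, which did not pass (edgeR adjusted p = 0.165), where 2.11% and 0.185% of all genes were called.

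The other 3 genes were low in liver and passed no test. Ppp1r1b had 2.10 to 5.81 CPM in HFLF, 3.87 to 4.96 CPM in HF and 2.49 to 5.27 CPM in LF. Epcam had 0.956 to 2.87, 0.626 to 2.99 and 0.644 to 2.97 CPM in HFLF, HF and LF, and Kcnk1 had 0.147 to 1.24, 0.0504 to 2.53 and 0.335 to 2.58 CPM. Their edgeR adjusted p-values were 0.264 to 0.656 for HF against LF, 0.287 to 0.905 for HFLF against LF and 0.678 to 0.859 for HFLF against HF. No liver library stood above the rest for these 3 as LF 4 did in eWAT, where they were at 80.7 to 153 CPM.

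The sources used here do not state a counting strand, so reads of overlapping antisense transcripts cannot be told apart from those of 3 of the genes. Exons of Akr1b7 overlap those of the pseudogene Gm13857 by 348 bases, those of Ppp1r1b overlap 1700003D09Rik by 460 bases, and those of Kcnk1 overlap Gm45875 by 179 bases, each on the opposite strand. Akr1b7 also has close paralogs in the same family, so that the split of its reads by the authors' counting is uncertain.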

How the data were processed

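Total RNA was extracted with TRI reagent, per the labels' protocols, and STAR and GRCm38.p6 are named for the reads, per the submitters' processing notes. The sources used here do not give a counting tool, annotation release, strand setting or versions. The authors deposited raw whole-number counts per gene for each tissue. They also deposited a table named RPKM, whose implied length of 1 gene varied 97.9-fold between eWAT libraries at the median (97.3-fold in liver), and which was not used. Gene symbols and positions came from GENCODE M21 (GRCm38), which held 16668 of 16690 eWAT and 14034 of 14052 liver genes, and promoters from RefSeq.

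The 10 members and all marker lists were chosen with earlier results of these data known. For each tissue, all 18 libraries entered 1 edgeR 4.0.16 quasi-likelihood fit (R 4.3.3, TMM, robust) with diet as the sole factor, and p-values were adjusted by Benjamini-Hochberg over all genes at 0.05. SE is the absolute log2 fold change over the root of F. The fit was tested on simulated data. Levels are TMM-scaled CPM, computed from the deposited counts. Beside the members, the genes named were the 4 most abundant of each marker list, the 5 most correlated with each member, and genes of 2 rules on libraries stated where used. No libraries were near copies. Alternatives were RLE and upper-quartile factors, DESeq2 1.42.0, voom with quality weights (limma 3.58.1), 2 filters on low counts, a fit without robust estimation, a fit of only 2 diets at a time, a block on the replicate number, CPM of plain totals, Spearman's rho, and leaving out each library. Leaving out sets of libraries was added after seeing the data.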

Additional observations from a re-analysis of the deposited data

Results flagged for a closer look

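Within a diet, the library farthest from the others was set apart where its gap to the nearest library exceeded 0.625 of the diet's range. This held in 33 of 90 groups of 6 libraries examined. Of the 33, 18 were among the 30 groups of members in eWAT, 14 were marker lists in eWAT and 1 was a member in liver. For normally distributed values chance marks about 1 in 20 groups, a shape that was not checked for these CPM. The members were also listed from these eWAT levels and the marker lists with them known. Their counts are thus a description and are not read against that share.

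In HFLF, library HFLF 4 stood apart for Crisp1 (7.05 CPM), Clic6 (30.1), Ppp1r1b (27.0), Prom2 (22.3), Kcnk1 (17.6), Hnf4a (20.1) and Epcam (29.8 CPM), and HFLF 6 for Prm2 (88.9 CPM). In HF, library HF 1 stood apart for Crisp1 (5.16 CPM), Prm2 (333), Prom2 (1.46), Kcnk1 (0.633) and Epcam (2.58 CPM), and HF 3 for Hnf4a (1.42 CPM). In LF, library LF 3 stood apart for Crisp1 (218 CPM), Akr1b7 (842) and Cnn1 (638 CPM), and LF 4 for Prm2 (124 CPM). In liver, HF 5 stood apart for Kcnk1 (2.53 CPM).

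Among summed marker lists, HFLF 6 (550 CPM), HF 1 (1476 CPM) and LF 4 (653 CPM) stood apart for sperm and germ cell genes, and HF 1 (57.0 CPM) for testis somatic cells. HFLF 4 stood apart for general epithelium (200.1 CPM), for the 2 gut genes (60.2 CPM, with LF 4 at 102.6 CPM apart in LF) and for the 1 kidney gene (1.89 CPM). LF 3 stood apart for smooth muscle (5889 CPM) and skeletal muscle (241 CPM). HFLF 2 stood apart for clear cell genes (80.5 CPM, mainly Atp6v0d2) and for leukocytes (492 CPM). LF 4 was the low library for the epididymal list (255 CPM, mainly Glb1l2) and for Tgm4 of the accessory glands (0.668 CPM).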

How the results depend on the processing

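The count of genes called for eWAT HFLF against LF (94) was 704 with DESeq2, 679 with voom, 50 with only the 2 groups and 15 with the replicate block. That for liver HFLF against HF (735) was 1312, 1758, 1181 and 444. The replicate numbers do not pair the libraries: same-numbered deviations correlated above 0.1 in 2 or 3 of 6 pairs, and a library matched its own number best in 0 to 2 of 6. Leaving out each library gave 0 to 341 genes for eWAT HFLF against LF and 215 to 1036 for liver HFLF against HF. Without the 6 eWAT libraries named above, HFLF against LF gave 6 and HFLF against HF 1390 (4242 with all). Without liver LF 1 to LF 4 the counts were 297, 26 and 1355, against 4891, 3176 and 735 (HF against LF, HFLF against LF, HFLF against HF). Upper-quartile factors gave 2352 higher and 2033 lower for eWAT HFLF against HF (1784 and 2458 with TMM), 67 and 32 for HFLF against LF (57 and 37), and 3051 and 3911 for HF against LF (3441 and 3376). In liver they gave 1866 and 1158 for HFLF against LF (1432 and 1744) and 2952 and 1869 for HF against LF (2295 and 2596).

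HF against LF in eWAT, the log2 fold change of Akr1b7 was 0.10 with voom quality weights, and 2.34 without the 6 libraries and without LF 3 to LF 5 and HFLF 4. Without those sets Hnf4a was at 0.42 and 0.20, and Epcam at 0.24 without the set of 4. In liver, values that did not pass also changed sign. For HFLF against LF, Epcam was at 0.13 with voom, 0.023 with the replicate block and -0.27 to 0.12 over single libraries left out, and Ppp1r1b at -0.083 and Kcnk1 at 0.075 without LF 1 to LF 4. For HF against LF, Kcnk1 was at -1.23 to 0.11 over single libraries left out and 0.67 without LF 1 to LF 4. For HFLF against HF, Kcnk1 was at -1.22 to 0.17 and Epcam at -0.046 to 0.47 over single libraries left out. The cause was not tested.

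HF libraries held 3 to 9 Clic6 counts each, so differences among the HF libraries were not detectable at this depth. The deposited filter kept genes by their eWAT level, so most epididymal genes are not analysed here. Libraries come with no label of the mouse or of tissue left on the pad. The filter of edgeR on low counts kept every gene and changed no count. With the replicate block, Akr1b7, Prom2, Hnf4a and Epcam were not past the threshold in eWAT for HF against LF.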
